A study of Mus musculus with 2 samples.

Results

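The cells described here are Lgr5-high cells that lack Olfm4, from single-cell RNA sequencing of organoids, cultured epithelium of the mouse small intestine. They numbered 313 of the 3353 barcodes kept as cells. A barcode was kept with at least 500 genes, at least 10000 UMIs (unique molecular identifiers, each of which stands for a captured RNA molecule) and at most 20% mitochondrial UMIs. A kept cell was a member if it had at least 2 Lgr5 UMIs per 10000 UMIs, fewer than 2 Olfm4 UMIs, under 5 UMIs per 10000 of Chgb, a granule protein of hormone-secreting cells, and under 2 per 10000 of Anxa1, Anxa3, Clu and Il1rn together. The members were thus chosen by the measured levels of these genes, so those levels are given as a description and support nothing.

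The labels list a control sample and a melatonin-treated sample of organoids on culture day 3, and in each sample 3 organoid lines were combined before capture. Dose, mouse strain and age are not given in the sources used here. The 2 samples were deposited with identical files in 3 of 3 kinds (counts, barcodes, genes), so both hold the same matrix. Its barcodes end in the suffix 1 or 2, called set 1 and set 2 here for the suffix alone, and no label ties a suffix to a treatment. The matrix therefore counts as 1 sample, the control cells were not compared with the melatonin-treated cells, and no test was run. Values are given per set, the direction from set 1 to set 2 is arbitrary, and intervals are 95% intervals that cover counting error only. Of the barcode sequences, 29 occurred with both suffixes, and 0 of these were members.

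Lgr5 (ENSMUSG00000020140) is a receptor for R-spondins and marks the stem cells at the base of the intestinal crypt. R-spondin bound to Lgr5 or Lgr4 removes the ubiquitin ligases Rnf43 and Znrf3 from the membrane, which leaves more Frizzled receptor for Wnt, and beta-catenin with its TCF partners then turns on targets such as Axin2, Ascl2 and Sox9. Olfm4 encodes a secreted glycoprotein that is usually abundant in the same crypt base cells of the mouse small intestine and depends on Notch signalling. Cells leaving the crypt base divide a few more times before they become absorptive enterocytes or secretory goblet, Paneth, tuft or hormone-producing cells.

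Members made up 201 of 1809 kept cells in set 1 (11.1%, exact binomial interval 9.70% to 12.7%) and 112 of 1544 in set 2 (7.25%, 6.01% to 8.66%). Their median depth was 34988 UMIs and 5221 genes in set 1 and 29370 UMIs and 4899 genes in set 2, with a median mitochondrial share of 9.42% and 10.2%. Median Lgr5 was 2.45 UMIs per 10000 in set 1, where the highest cell reached 4.74, and 2.48 in set 2, where the highest reached 5.49. In raw UMIs that was a median of 9 (3 to 19) and of 8 (3 to 17). The limit cut through a continuous distribution, as the plot of Lgr5 per cell shows. Cells just inside it, at 2 to 2.5 per 10000, numbered 109 and 58, and cells just outside it, at 1.5 to 2, numbered 190 and 101, with medians of 8 and 6 Lgr5 UMIs in both sets. Only 7 members of set 1 and 3 of set 2 had a counting interval for Lgr5 that lay wholly above the limit. Members held 28.6% of the Lgr5 UMIs of the kept cells of set 1 and 25.5% in set 2, and 76.2% and 62.0% of kept cells had at least 1 Lgr5 UMI. The members are thus a range of Lgr5 set by the limit, and no clustering was run.

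**Figure D1:**
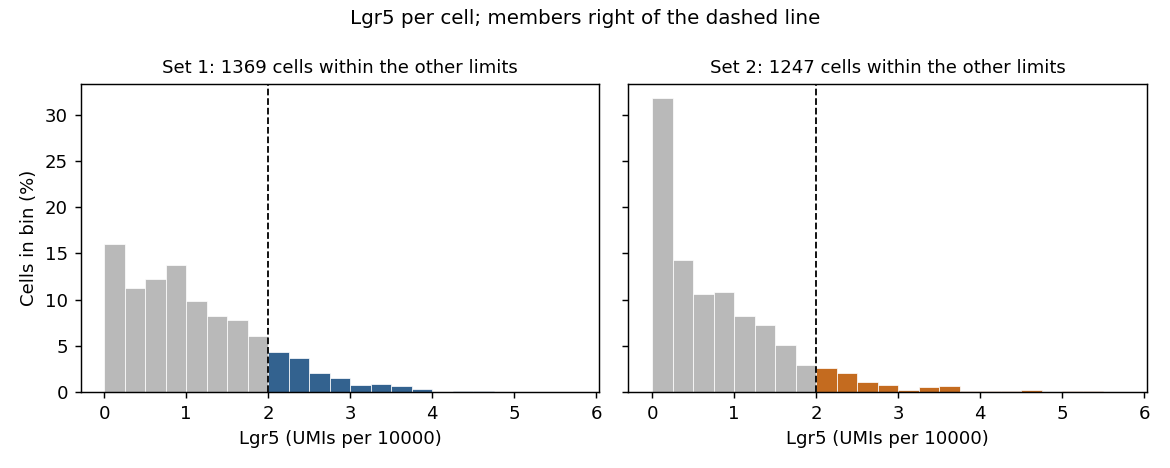
Share of cells (%, vertical axis) in bins of Lgr5 (UMIs per 10000, horizontal axis) among the cells of each set that meet all limits but that on Lgr5; coloured bins right of the dashed line at 2 are the 201 members of set 1 and the 112 of set 2. The bars decline through the limit without a gap.

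The Olfm4 limit left out 37 of the 239 Lgr5-high cells of set 1 (15.5%, 11.1% to 20.7%) and 0 of the 113 of set 2 (upper bound 3.21%). The Chgb limit left out 1 cell in each set, and the limit on the 4 summed genes left out 0. Among members, 178 of set 1 and 110 of set 2 had no Olfm4 UMI, and the other 23 and 2 had 1. Of the 37 Olfm4-positive cells, 14 had 2 or 3 UMIs, 12 had 10 or more and the highest had 91. Lgr5-high cells above the Olfm4 limit were thus found in set 1 and not in set 2. Most cells below the Lgr5 limit were under the Olfm4 limit as well. Of those that met the other limits, 1168 of 1297 in set 1 and 1135 of 1145 in set 2 were under it. Lack of Olfm4 was thus not particular to the Lgr5-high cells. Among cells below the Lgr5 limit, too, those above the Olfm4 limit were more frequent in set 1.

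The cells were checked against Axin2 (ENSMUSG00000000142), a negative regulator induced by Wnt, and Ascl2 (ENSMUSG00000009248), a transcription factor of crypt base stem cells, which the rule did not use. The comparison group was the Lgr5-low counterparts, 1168 cells in set 1 and 1135 in set 2, which meet every limit but have Lgr5 under 2 per 10000. UMIs were summed over the cells of a group and scaled to CPM, counts per 1000000 UMIs of the group. Axin2 stood at 51.8 CPM (46.6 to 57.5) in members and 36.1 (34.3 to 38) in counterparts of set 1, and at 28.2 (22.8 to 34.4) and 27.8 (26.2 to 29.5) in set 2. Ascl2 stood at 10.2 (7.98 to 12.9) against 6.52 (5.77 to 7.34) in set 1 and at 5.63 (3.39 to 8.79) against 5.09 (4.41 to 5.84) in set 2. Both markers were thus higher in members of set 1 with intervals that did not overlap, while in set 2 the intervals of members and counterparts overlapped for both. At a common depth of 10000 UMIs, the expected share of cells with an Axin2 UMI was 38% of members and 27.2% of Chgb-high cells in set 1, against 21.7% and 27.4% in set 2, with unthinned median depths of 34988 and 15156 UMIs in set 1 and of 29370 and 16428 in set 2. The Axin2 share of set 2 members was thus no higher than in Chgb-high cells, though mature cells of set 2, with a median of 34875 UMIs, were at 12.9% (8.10% to 18.9%), an interval that overlapped that of members (14.2% to 30.2%). For Ascl2 the shares in set 2 were 5.72% (1.99% to 11.3%) of members, 0.638% of Chgb-high cells and 0.392% of mature cells. For Lgr5 the same shares were 94.9% and 9.04% in set 1 and 95.6% and 9.24% in set 2. Since Axin2 and Ascl2 do not set these cells apart in set 2, the cells are called by the genes of their rule.

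**Figure D2:**
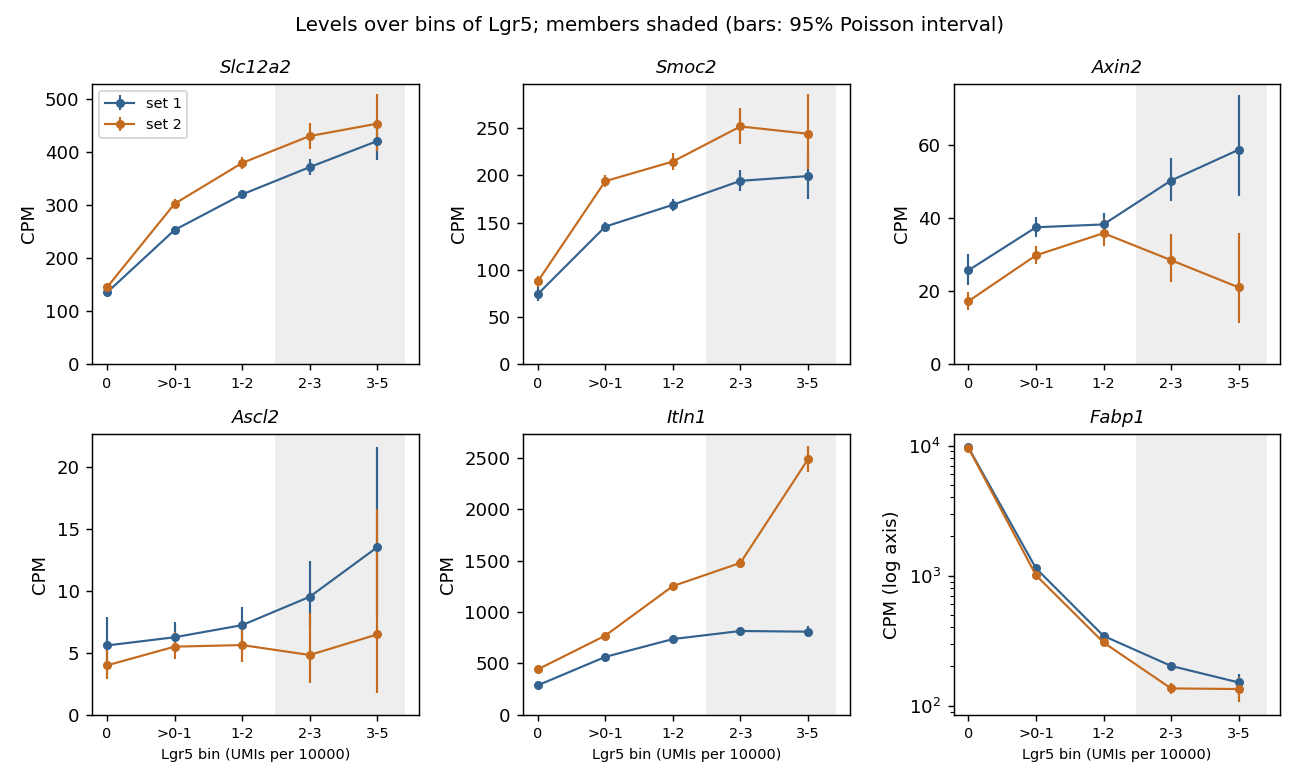
Levels of 6 genes (CPM of summed UMIs, vertical axes, the last one logarithmic) over bins of Lgr5 (UMIs per 10000, horizontal axes) in set 1 and set 2; bars are 95% Poisson intervals and the shaded bins hold members. Slc12a2 and Smoc2 are higher in each member bin than in each lower bin, Axin2 does so in set 1 alone, and Fabp1 declines.

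The level of Axin2 was also followed over bins of Lgr5. In set 1 it was 25.7 CPM (21.8 to 30.1) in the 189 cells without an Lgr5 UMI, 50.3 (44.6 to 56.5) in the 159 cells at 2 to 3 per 10000 and 58.7 (46.1 to 73.7) in the 42 cells at 3 to 5. In set 2 it was 17.2 (14.9 to 19.8) in 345 cells without Lgr5, 35.9 (32.3 to 39.7) in 294 cells at 1 to 2, 28.5 (22.5 to 35.6) in 82 cells at 2 to 3 and 21.0 (11.2 to 35.9) in 27 cells at 3 to 5. The highest Lgr5 bin of set 2 was also shallower, with a median of 19937 UMIs, and 3 further cells of set 2 above 5 were too few for a level of Axin2.

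The start regions of these marker genes are shown because Axin2 and Ascl2 are the standard readouts of Wnt activity against which the cells were checked. They are the 250 bases before the annotated start in RefSeq's table for GRCm38.p6, written 5′ to 3′ on the strand of the gene, for Axin2 at chr11:108920099-108920348 (plus strand) and for Ascl2 at chr7:142969265-142969514 (minus strand).
Axin2: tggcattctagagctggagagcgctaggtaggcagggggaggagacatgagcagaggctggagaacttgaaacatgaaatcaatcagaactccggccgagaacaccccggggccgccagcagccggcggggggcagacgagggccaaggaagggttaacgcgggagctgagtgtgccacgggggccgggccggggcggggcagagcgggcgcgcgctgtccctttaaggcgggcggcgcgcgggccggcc
Ascl2: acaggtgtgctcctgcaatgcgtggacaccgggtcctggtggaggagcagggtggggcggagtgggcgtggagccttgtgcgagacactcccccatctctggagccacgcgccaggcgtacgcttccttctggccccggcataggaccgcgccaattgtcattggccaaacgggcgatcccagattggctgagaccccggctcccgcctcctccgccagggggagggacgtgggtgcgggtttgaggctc
The TCF/LEF letters CTTTGAT and CTTTGAA were searched on both strands in the 250 bases before and 50 after each start. They were in 0 of the 14 Wnt and stem genes that the table held and in 2842 of 32851 promoters of that length (8.65%), so nothing is capitalised. No match says only that these letters are not in this window. Lgr5 is not printed.

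Other Wnt targets and crypt stem genes were slightly higher in members, with few large ratios. Of the 30 genes on that list, 22 passed the filter of 5 CPM in either group of either set, which 9373 genes passed in all. Ratios were taken on CPM plus 1, which understates the ratio of low genes, and a gene counted as past the fold at 1.5 or more in both sets. 0 of the 22 were past it in either direction, beside 7 genes (0.0747%) higher and 191 (2.04%) lower among all genes. By sign alone, 20 of 22 were higher in both sets, beside 42.1% of all genes, and the exceptions were Msi1, an RNA-binding protein, and Ccnd1, cyclin D1, both lower in set 2. The median log2 ratio was 0.29 in set 1 and 0.24 in set 2, beside 0.04 and 0.04 over all genes. With no more than 10% mitochondrial UMIs 13 of 22 were higher in both sets, beside 31.3% of all genes. The set 2 median was then 0.047, beside -0.0066 over all genes. With Lgr5 of at least 3 per 10000 12 of 22 were higher in both sets, beside 37.6% of all genes. The medians were then 0.38 and 0.43, beside 0.04 and 0.08 over all genes. Intervals lay apart, with members higher in both sets, for 8 of the 22, beside 4.68% of all genes. In single sets, 0 of the 22 were at least 1.5-fold higher in set 1 and 3 in set 2, beside 0.48% and 3.3% of all genes, and 0 were 1.5-fold lower in either set, beside 2.72% and 4.64%. Intervals lay apart with members higher for 15 of the 22 in set 1 and 9 in set 2, beside 10.2% and 10.4% of all genes, and with members lower for 0 in both, beside 8.17% and 9.69%. Notum, Nkd1, Tnfrsf19, Lef1, Sp5, Tcf7, Zbtb10 and Apcdd1 were under the filter.

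The 8 included membrane proteins, a secreted protein and a transcription factor. Slc12a2, a sodium, potassium and chloride cotransporter of crypt cells, stood at 379.7 CPM (365 to 394) against 261 (256 to 266) in set 1 and at 433 (411 to 455) against 277 (272 to 282) in set 2. Smoc2, a secreted matricellular protein enriched in Lgr5 stem cells, stood at 195 (185 to 206) against 144 (141 to 148) and at 252 (235 to 269) against 169 (165 to 173). Single members held 0 to 5.95 Smoc2 UMIs per 10000 in set 1, with a median of 1.83, and 0 to 7.83 in set 2, with a median of 2.12, so the difference was a shift within a wide range. Sox9, a transcription factor of crypt progenitors and Paneth cells, was at 82.5 against 68.7 CPM and at 86.5 against 72.0. Soat1, a cholesterol acyltransferase, was at 150.0 against 117 and at 169 against 111. The R-spondin receptor Lgr4 was at 43.3 against 35.6 and at 47.1 against 35.9, and Lrig1, a brake on EGF receptors, at 35.0 against 28.4 and at 37.6 against 28.0. Prom1, a membrane glycoprotein, was at 67.7 against 57.6 and at 87.1 against 60.3, and Rgmb, a BMP co-receptor, at 55.0 against 40.3 and at 48.3 against 33.8. Each of these ratios was at most 1.56 in each set. Rnf43 was at 19.3 against 16.0 CPM in set 1 and at 22.2 against 20.6 in set 2, with overlapping intervals in both. Znrf3 was at 9.79 against 7.62 in set 1, with overlapping intervals, and stood apart in set 2 at 13.9 (10.2 to 18.5) against 7.81 (6.97 to 8.72).

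**Figure D3:**
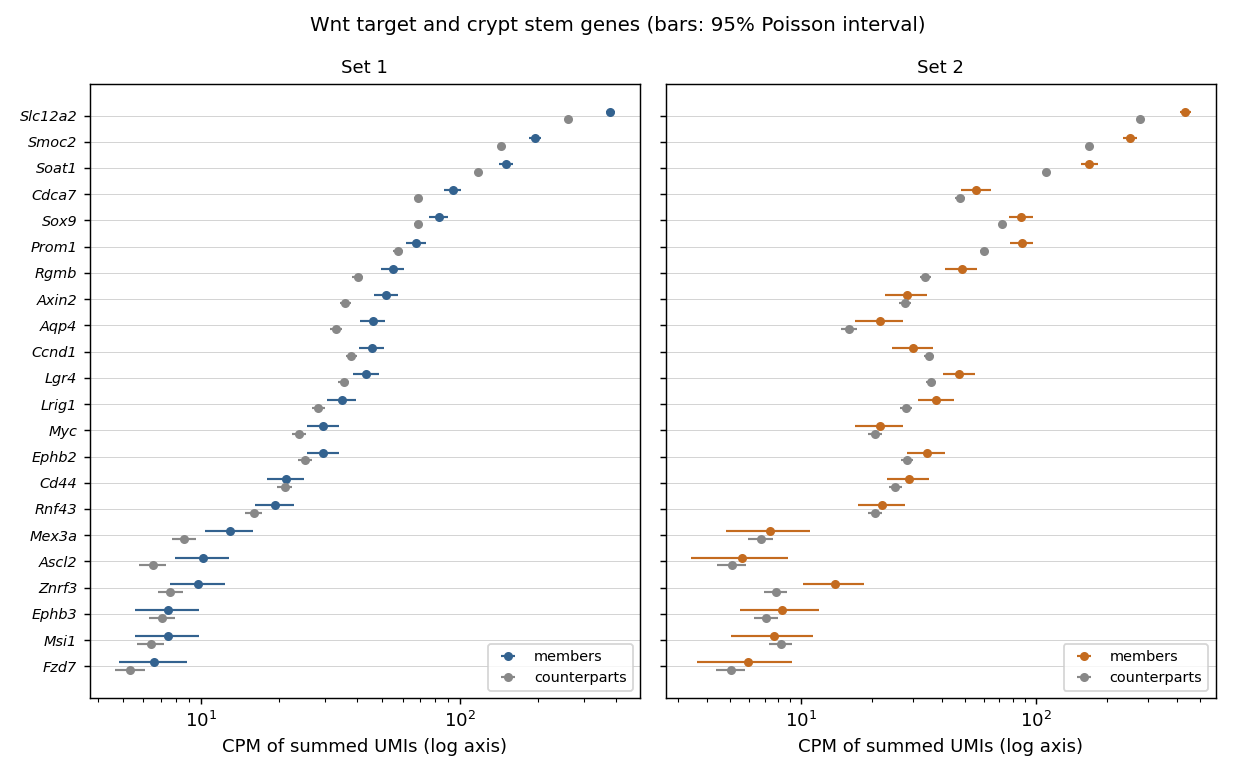
Levels (CPM of summed UMIs, log axis) of the 22 Wnt target and crypt stem genes that passed the filter, in members (coloured) and Lgr5-low counterparts (grey) of each set; bars are 95% Poisson intervals. Most members' points lie right of the grey points, and Axin2, Ascl2, Mex3a, Ccnd1, Myc, Cdca7 and Aqp4 do so with intervals apart in set 1 and not in set 2.

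The counterparts included mature cells, so the comparison was repeated with a limit on mature genes in both groups. The summed enterocyte, goblet, Paneth and tuft genes had a median of 24.5 UMIs per 10000 in members and 28.5 in counterparts of set 1, with highest cells at 242 and 1036, and of 16.3 and 17.9 in set 2, with highest cells at 43.4 and 2715. With both groups held under 40 per 10000, 183 and 108 members met 843 and 860 counterparts. The median log2 ratio of the 22 genes was then 0.27 in set 1 and 0.12 in set 2, and 14 of 22 were higher in both sets, beside medians of 0.04 and 0.02 and 38.4% of all genes under the same limit. Smoc2, Slc12a2, Prom1, Lgr4 and Soat1 kept intervals apart in both sets. Axin2 was then at 54.8 against 39.7 CPM in set 1 and at 28.6 against 32.0 in set 2, so its sign in set 2 depended on this limit. The log2 ratio of Axin2 in set 2 was below 0 under 9 of 18 alternatives, between -0.44 and -0.0092, and that of Ascl2 under 4, between -0.23 and -0.069.

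Genes of absorptive and secretory cells were lower in members than in all Lgr5-low counterparts, taken without the limit on mature genes. Of 15 enterocyte genes, 10 were past the fold in both sets and all 15 had members lower with intervals apart, beside 2.04% and 5.62% of all genes, with medians of -2.20 and -2.94 on the log2 scale. Fabp1, a fatty acid binding protein, stood at 193 CPM (183 to 203) against 2047 (2033 to 2061) in set 1 and at 135 (122 to 147) against 3251 (3233 to 3268) in set 2. A minority of counterparts carried this level, since 16.5% and 21.1% of them had 10 or more Fabp1 UMIs per 10000, and the median cell had 1.01 in members and 1.57 in counterparts of set 1 and 0.646 and 0.885 in set 2. Of 6 goblet genes 5 were past the fold, of 4 Paneth genes 4, and of 6 enteroendocrine genes 4, among them Neurog3, the factor that starts the hormone-cell lineage, at 0.144 against 5.85 CPM and at 0 against 3.72. In set 1 a single member carried 172 of the 302 UMIs of Tff3, a goblet peptide. Defining markers of other cell types were at or near 0: Dclk1 of tuft cells, Ptprc of immune cells and Col1a1, Col1a2, Col3a1 and Pdgfra of mesenchyme had no UMI in members, which allows at most 0.531 CPM in set 1 and 1.09 in set 2. Of 6 immune and 7 mesenchymal genes, 0 passed the filter. Summed immune genes were at 1.73 CPM in set 1 and 1.48 in set 2, and summed mesenchymal genes at 0.864 and 1.48.

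By the naming rule, the 12 genes most clearly lower in members were Ghrl, Guca2b, Defa24, Fabp1, Cyp3a11, Apoa1, Leap2, Spink1, Cyp2c29, Tff3, Cyp2b10 and Rbp2, of 307 that met its limits. Ghrl, the hormone ghrelin, stood at 7.20 CPM (5.34 to 9.49) against 196 (192 to 200.2) in set 1 and at 5.04 (2.93 to 8.07) against 153 (149 to 157) in set 2. Few counterparts carried this level, since 6 of 1168 and 5 of 1135 had 10 or more Ghrl UMIs per 10000, and the median cell of both groups had none. Defa24, a Paneth defensin, stood at 3.6 against 56.1 and at 10.1 against 257, and 6 and 7 counterparts had 10 or more per 10000, while the median cell of both groups had none. Rbp2, a retinol binding protein of enterocytes, stood at 98.6 against 484 and at 60.5 against 767. With both groups under 40 per 10000 of mature genes, the log2 ratios of Guca2b, Cyp3a11, Leap2, Cyp2c29 and Tff3 turned positive in set 1, at 0.26, 0.08, 0.04, 0.11 and 0.01. In set 2 those of Defa24, Cyp3a11, Apoa1, Leap2, Spink1, Cyp2c29, Tff3 and Cyp2b10 did, at 0.42, 0.24, 0.095, 0.47, 0.030, 0.15, 0.040 and 0.12. That limit is on the sum of genes of this kind, so it acts on these values directly.

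The 12 genes most clearly higher, of 307 that met the limits, were Slc12a2, Nfia, Dnajb14, Cdk6, Itln1, Pik3r1, Smoc2, Arid5b, Rad21, Kif20b, Zfhx3 and Tpx2. Nfia, a transcription factor, stood at 92.4 CPM (85.4 to 99.9) against 64.4 (62.0 to 66.9) in set 1 and at 74.4 (65.5 to 84.2) against 51.7 (49.5 to 54.0) in set 2. Cdk6, a G1 kinase, stood at 72.1 against 50.8 and at 85.0 against 54.0. Pik3r1, the regulatory subunit of phosphoinositide 3-kinase, stood at 79.2 against 57.8 and at 78.5 against 50.6, and Rad21, a cohesin subunit, at 128 against 95.5 and at 109 against 79.6. These ratios were between 1.33 and 2.06, and Itln1 in set 2 was the largest of them. The 7 genes past the fold in both sets were all low: Traf6, Zbtb33, Tnfsf10, Cttnbp2, Ikbip, Dock6 and Sema7a. The highest of them was Sema7a at 15.7 CPM (12.9 to 18.9) against 9.41 (8.50 to 10.4) in set 1 and at 24.9 (19.9 to 30.8) against 16.1 (14.9 to 17.4) in set 2.

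Itln1, the lectin intelectin, was among the genes whose UMIs varied most among members relative to counting error. It stood at 814 CPM (792 to 835) against 589.6 (582 to 597) in set 1 and at 1653 (1610 to 1697) against 801 (792 to 810.0) in set 2. Single members ran from 0 through a median of 3.54 to 82.9 per 10000 in set 1, with 20 cells at 0, and from 0 through 7.78 to 142 in set 2, with 8 at 0. Of the 2187 genes at 50 CPM or more, Itln1 ranked 2 by the variance of its UMIs over that expected from counting in members, taking the smaller value of both sets, after Gm42418, a gene annotated over ribosomal repeats. In set 2 alone Gm26917 was also above Itln1. Abundant genes can rank high by this measure, as did Eef1a1 at rank 34, with 47.4 to 125 per 10000 in set 1. At a common depth, 79.8% of set 1 members and 82.5% of set 2 members had an Itln1 UMI, and 48.6% and 47.5% of Chgb-high cells did. In set 2 its level was 1478 CPM (1433 to 1525) at 2 to 3 Lgr5 per 10000 and 2486 (2364 to 2614) in the 27 cells at 3 to 5, and in set 1 it was 815 (791 to 839) and 808 (759 to 859). The value of those 27 cells rests on 1538 UMIs, and in set 2 members 3 cells held 21.5% of the 5580 Itln1 UMIs and 1 cell 487. The 3 cells of set 2 above 5 were at 865 (631 to 1158). Metallothionein Mt1 and the immediate early genes Jun, Fos and Atf3 were also among the 9 most dispersed genes.

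Genes of mitosis were higher in members and genes of DNA replication were not. Of 20 G2 and mitosis genes, 0 were past the fold in both sets, 19 were higher in both by sign and 17 had intervals apart and members higher in both, beside 42.1% and 4.68% of all genes, with medians of 0.27 and 0.44. Mki67, a marker of dividing cells, stood at 184 against 141 CPM in set 1 and at 160.3 against 121 in set 2. Cenpf, a kinetochore protein, stood at 135 against 102 and at 141 against 84.6, and Tpx2, a spindle assembly factor, at 94.9 against 71.2 and at 75 against 49.2. Top2a, the topoisomerase that untangles chromosomes, was the exception by sign, at 169.5 against 169.6 in set 1 and at 175 against 161 in set 2. Of 20 S phase genes, 0 were past the fold in both sets and 0 had intervals apart in both, with medians of -0.02 and -0.21. Pcna, the replication clamp, was at 47.7 against 53.6 and at 58.1 against 68.4.

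Most members carried mitotic transcripts. The summed G2 and mitosis list reached 10 per 10000 in 180 of 201 members of set 1 (89.6%, 84.5% to 93.4%) and in 912 of 1168 counterparts (78.1%, 75.6% to 80.4%). In set 2 it did so in 77 of 112 members (68.8%, 59.3% to 77.2%) and in 608 of 1135 counterparts (53.6%, 50.6% to 56.5%). The S phase list reached 10 in 23.9% of members and 24.1% of counterparts of set 1 and in 26.8% and 34.8% in set 2, where the intervals of members (18.9% to 36.0%) and counterparts (32.0% to 37.7%) overlapped. Neither list reached 10 in 10 members of set 1 (4.98%, 2.41% to 8.96%) and 21 of set 2 (18.8%, 12% to 27.2%). These cells were shallower, with medians of 21757 and 21453 UMIs, than the members with mitotic transcripts, with medians of 36400 and 34110.

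**Figure D4:**
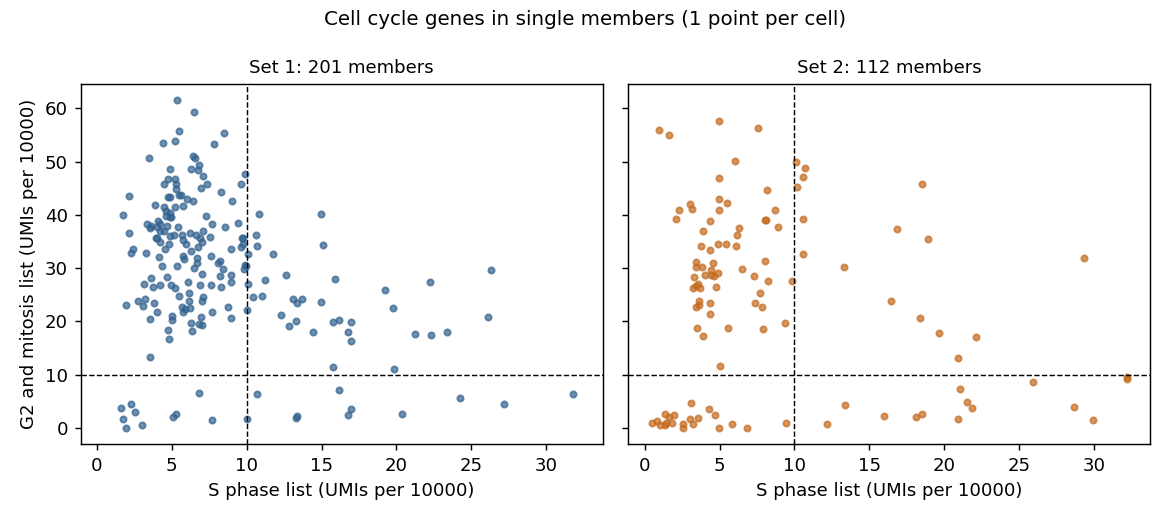
Summed G2 and mitosis genes (vertical axis) against summed S phase genes (horizontal axis), both in UMIs per 10000, for each of the 201 members of set 1 and the 112 of set 2; dashed lines mark 10. Most points lie above the horizontal line and left of the vertical line, and 10 and 21 cells lie in the lower left corner.

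Notch, BMP and EGF genes differed member by member. Of 11 Notch pathway genes that passed the filter, 0 were past the fold in both sets, and Hes1, the Notch target repressor of secretory fate, and Sox4 had intervals apart with members higher in both, beside 4.68% of all genes. Hes1 stood at 391 against 335 CPM in set 1 and at 402 against 368 in set 2, and Sox4 at 287 against 247 and at 325 against 210.2. With both groups under 40 per 10000 of mature genes, Hes1 was at 405 against 384 in set 2 with overlapping intervals, while Sox4 kept intervals apart in both sets. The ligand Dll1 was at 9.5 against 10.6 and at 6.82 against 8.95, with overlapping intervals. Of 8 BMP and Id genes 0 were past the fold, and Id2 stood at 98.2 against 74.6 and at 48.0 against 25.6, past 1.5 in set 2 alone. Of 18 EGF receptor and feedback genes, 2 were lower past the fold in both sets and 0 higher, beside 2.04% and 0.0747% of all genes. Areg, the EGF receptor ligand amphiregulin, stood at 45.5 CPM against 165 in set 1 and at 99.6 against 374 in set 2, and Dusp5, a phosphatase of nuclear ERK, at 22.8 against 35.6 and at 22.5 against 45.6. With both groups under 40 per 10000 of mature genes, Areg was at 46.1 against 82.2 and at 102 against 206, still lower with intervals apart. Dusp5 was then at 23.3 against 28.8 in set 1, under the fold and with overlapping intervals, and at 21.9 against 35.7 in set 2, with intervals apart.

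Immediate early genes were lower in members, and most other stress and injury genes stayed under the fold. Of 10 immediate early genes, 2 were lower past the fold in both sets, beside 2.04% of all genes, and 9 had intervals apart and members lower in both, beside 5.62%, with medians of -0.38 and -0.45. Atf3, a stress transcription factor, stood at 115 against 227 CPM and at 184 against 355, and Dusp1, a phosphatase of stress kinases, at 22.5 against 59.9 and at 41.8 against 93.0. With both groups under 40 per 10000 of mature genes neither was past the fold in both sets, with log2 ratios of -0.52 and -0.70 for Atf3 and of -0.69 and -0.51 for Dusp1, while intervals stayed apart. Fos, an immediate early transcription factor, was then at -0.13 and -0.32. Of 10 heat shock genes 1 was lower past the fold in both sets, Hspa1a, at 35.4 against 93.4 and at 75 against 124. Of 12 oxidative stress genes 0 were, and Gpx2, an epithelial glutathione peroxidase, stood at 475 against 525 and at 723 against 963. Of 7 YAP targets 1 was, Amotl2, at 1.44 against 2.72 and at 2.96 against 5.84 with overlapping intervals. Of 9 regenerative and fetal-like genes that the rule did not use, 2 were, Areg and S100a6, the latter at 6.62 against 15.4 and at 10.4 against 29.0. Smaller shifts were more frequent. Members were lower with intervals apart in both sets for 6 of 12 oxidative stress and 5 of 10 heat shock genes, beside 5.62% of all genes. For the regenerative genes it was 3 of 9 and for YAP targets 1 of 7, while 1 heat shock gene, Hsp90ab1, was higher. Of 11 prostaglandin E2 and melatonin receptors and handling enzymes 3 passed the filter and 0 were past the fold in both sets, and the receptor Ptger4 was at 5.90 against 6.90 in set 1 and at 3.26 against 8.58 in set 2.

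Members of the 2 sets were compared gene by gene. Of 9184 genes tested, 474 (5.16%) were at least 1.5-fold higher in set 2 and 217 (2.36%) in set 1. This balance depended on the limits, with 539 and 594 at no more than 10% mitochondrial UMIs and 676 and 516 without the CPM filter. The 8 named genes higher in set 2 were Sprr2a3, Nupr1, 2200002D01Rik, Anpep, Hspa1b, Gsta3, Akr1c19 and Gsta1, of 247 that met the limits. By list, 5 of 11 oxidative stress genes were at least 1.5-fold higher in set 2 and 0 in set 1, set 1 had 3 of 8 BMP and Id genes higher by that fold and set 2 had 0, and 0 of 12 metabolism genes were in either direction. Gsta1, a glutathione transferase, stood at 432 CPM (417 to 448) in set 1 and 939.6 (907 to 973) in set 2, and Gsta3 at 62.4 and 140.2. Their log2 ratios of 1.12 and 1.16 in members stand beside 1.12 and 1.57 in counterparts. Sprr2a3, a cornified envelope protein, stood at 8.21 (6.22 to 10.6) and 91.0 (81.1 to 102), a log2 ratio of 3.32 beside 0.78 in counterparts, and 41 of the 112 members of set 2 had a UMI. Nupr1, a stress-induced nuclear protein, stood at 60.6 and 202, with 3 cells holding 40.1% of its UMIs in set 2.

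The 8 named genes higher in set 1, of 348, were Rgcc, Rdh7, Adh1, Dmbt1, Sis, Id1, Dnajb14 and Id2. Rgcc, a regulator of cell cycle kinases, stood at 215 CPM (204 to 226) in set 1 and 80.0 (70.7 to 90.1) in set 2. Id1, a target of BMP signalling, stood at 135 (127 to 144) and 64.9 (56.6 to 74.1), and Id2 at 98.2 and 48.0. Their log2 ratios of -1.05 and -1.02 in members stand beside -0.96 and -1.50 in counterparts, so both cell groups of a set shared the direction. Sis, the brush border enzyme sucrase-isomaltase, stood at 207 and 98.1 in members, while counterparts were at 305 and 310.1. Among Wnt and stem genes, 6 of 22 were at least 1.5-fold higher in set 1 and 0 in set 2, beside 2.36% and 5.16% of all genes. Axin2, Cdca7, Ccnd1 and Aqp4 stood apart between the sets, with log2 ratios of -0.86, -0.74, -0.59 and -1.06 in members and of -0.37, -0.52, -0.12 and -1.01 in counterparts. Smoc2, Slc12a2 and Prom1 stood apart in the other direction, at 0.37, 0.19 and 0.36.

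**Figure D5:**
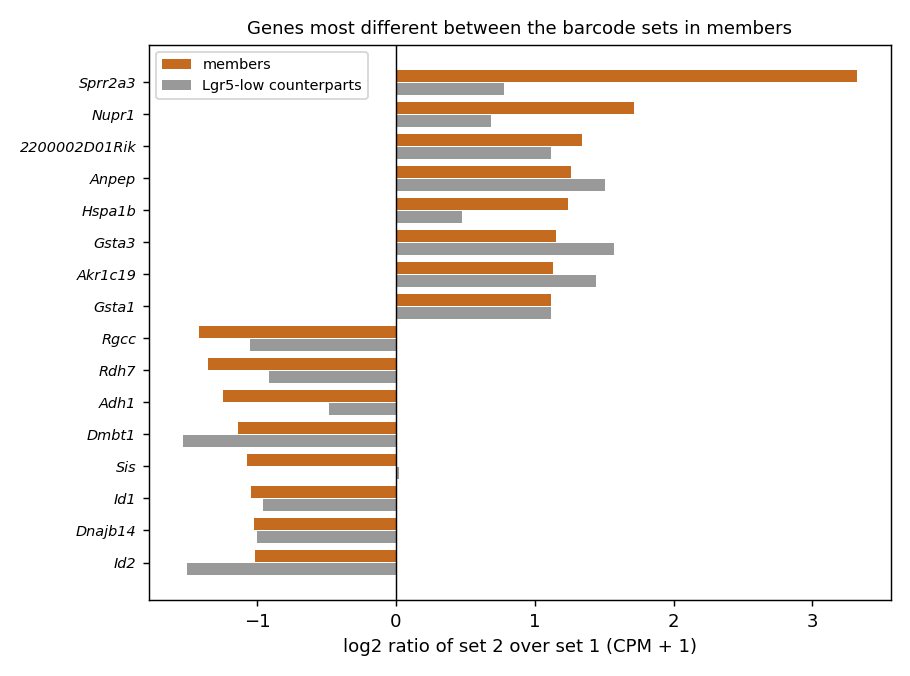
Log2 ratio of set 2 over set 1 (CPM plus 1, horizontal axis) for the 8 named genes higher in each set (vertical axis), in members (coloured bars) and Lgr5-low counterparts (grey bars). Bars of members and counterparts point the same way for all genes but Sis, whose counterparts are at 0.02.

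Members were also set beside the 37 Olfm4-positive Lgr5-high cells of set 1. The plan asked for 50 cells in a group, so this comparison was added after that number was seen, and set 2 held none. Lgr5, which the rule fixed in both groups, stood at 259 CPM (247 to 271) in members and 270.1 (243 to 299.9) in Olfm4-positive cells. Of 9101 genes tested, 551 (6.05%) were at least 1.5-fold higher in members and 403 (4.43%) lower. Axin2 was lower in members, at 51.8 (46.6 to 57.5) against 71.8 (57.9 to 87.9), as were Rgmb at 55.0 (49.6 to 60.8) against 87.2 (71.9 to 105) and Ccnd1 at 45.6 (40.8 to 51.0) against 67.1 (53.8 to 82.8), each with intervals apart. The median of the 22 Wnt and stem genes was -0.16, with 13 lower and 9 higher, and past the fold were Mex3a and Fzd7, higher in members with overlapping intervals, and Rgmb, lower. Of 6 YAP targets, 3 were lower past the fold and 1 higher. Smoc2 and Slc12a2 had overlapping intervals.

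A minority of the replication and absorptive genes were past the fold against these Olfm4-positive cells, and most others were higher in members by sign. Over all genes the median was 0.02, 53.7% were higher by sign, and 6.05% were higher past the fold. Of 18 S phase genes 17 were higher by sign and 5 past the fold, with a median of 0.49, and Rrm2, a subunit of ribonucleotide reductase, stood at 76.3 (70.0 to 83.1) against 37.8 (28.0 to 50). Of 20 G2 and mitosis genes 14 were lower by sign, with a median of -0.10. Of 12 enterocyte genes 12 were higher by sign and 3 past the fold, with Fabp1 at 193 (183 to 203) against 70.2 (56.5 to 86.2). Of 4 goblet genes 4 were past the fold and higher, with a median of 0.73, and 1 member held 172 of the 302 Tff3 UMIs of members. Of 10 immediate early genes 3 were higher past the fold, with a median of 0.46. The 8 named higher genes, of 132, were Fabp1, Gsta1, Rrm2, Adh1, Tm4sf4, Edn1, Zfp36 and Gfpt1. The 8 named lower genes, of 56, were Coq8a, Pmm2, Mri1, Rgmb, Fbxw2, Clca3b, Chtf8 and Pde5a. Id1 stood at 135 (127 to 144) in members and 95.7 (79.6 to 114) in Olfm4-positive cells, and Hes1 at 391 (376 to 406) and 338 (307 to 371). With 37 cells from 1 pool, these differences describe those cells and have no replicate check.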

How the data were processed

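Single cells of organoids were profiled with a droplet method that captures the 3′ ends of RNA. The deposited values are raw counts of UMIs per gene and barcode, with no normalization, for 31053 genes and 21806 barcodes. Cell Ranger 3.1.0, STAR 2.7.3a and bcl2fastq 2.20.0 are named in the submitters' processing notes, and the genome build is not given in the sources used here. The mouse name table supplied as reference held 30934 of the identifiers. Symbols on several rows (35) were left out of the lists, which removed 1 list gene. Counts cannot be split with certainty between near-identical genes such as the defensins and glutathione transferases.

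Cells were chosen by the limits given above. No doublet caller was run, and an alternative leaves out the 5% of kept cells with the most UMIs in each set. UMIs were summed over cells, scaled to CPM with exact Poisson intervals, and compared on log2 of CPM plus a pseudocount of 1. A gene was tested at 5 CPM or more in either group of either set and at least 10 UMIs. Shares have exact Clopper-Pearson intervals. Shares at a common depth are expected values after thinning each cell to 10000 UMIs, which left out no cell. Free RNA was judged from cells with Chgb at 5 or more per 10000.

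Named genes had 50 CPM or more in either group of both sets and intervals apart in the same direction in both, and were ranked by the smaller log2 ratio, 12 each way. Between the sets, and against Olfm4-positive cells, 8 each way were named, and between the sets genes whose 3 highest cells held most of their UMIs were left out (1 gene). Members of the Wnt and stem list and list genes past the fold were also named, as were genes with a role in a pathway described. The members and lists were chosen with earlier results of these data known. The ratio and interval code was tested on simulated data. Python 3.11.15, numpy 2.4.6, scipy 1.17.1 and pandas 2.3.3 were used.

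Genes named outside these rules were chosen after their values were seen. Alternatives changed the limits on mitochondrial share, depth, Lgr5, Olfm4, mature genes and cell cycle genes, the filter, the pseudocount and the summing.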

Additional observations from a re-analysis of the deposited data

Results flagged for a closer look

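For 4 of 9373 genes, members and counterparts differed in opposite directions in the 2 sets, each with intervals apart, and this difference between sets was not tested. Sprr2a3, a cornified envelope protein, was lower in members of set 1, at 8.21 CPM against 22.5 (log2 ratio -1.35), and higher in members of set 2, at 91.0 against 39.3 (1.19). Ctrb1, a pancreatic chymotrypsinogen gene, had log2 ratios of -1.79 and 2.2, and 3 cells held 89.1% of its 247 UMIs in set 2 members. AA467197 had log2 ratios of -0.79 and 0.81, at 5.33 against 9.91 CPM in set 1 and 16.9 against 9.18 in set 2. 2610528A11Rik had log2 ratios of -0.73 and 0.97, at 5.33 against 9.48 and 13.3 against 6.31. In set 2 members, 3 cells held 33.2% of the 307 UMIs of Sprr2a3 and 38.6% of the 57 of AA467197. For 2610528A11Rik 3 cells held 40% of 45. The intervals do not cover such spread between cells.

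Barcodes outside the kept cells also met the rest of the rule. In set 1, 89 barcodes, and in set 2, 48, failed the mitochondrial limit alone, with median mitochondrial shares of 31.2% and 27.6%. They had Smoc2 at 203 CPM (179.8 to 229) and 271 (232 to 314), beside 195 and 252 in members. Slc12a2 was at 482 and 643, beside 379.7 and 433, and Mki67 at 306 and 294, beside 184 and 160.3. Axin2 was at 42.2 (31.9 to 54.8) and 38.3 (24.8 to 56.5), beside 51.8 and 28.2. Ascl2, at 1.51 (0.182 to 5.44) and 1.53 (0.0387 to 8.53) beside 10.2 and 5.63, rests on very few UMIs. Their median depth was 13757 and 12766 UMIs, under that of the members. CPM counts all UMIs of a group, mitochondrial ones included, and the median mitochondrial share of members was 9.42% and 10.2%. A larger mitochondrial share lowers the CPM of every other gene, so these levels and those of members are on unlike bases.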

How the results depend on the processing

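Of 1208 values of named genes under 18 alternatives, 1151 kept their sign and 57 did not, 13 of them Axin2 or Ascl2 in set 2. In set 2, Axin2 was at -0.24 with at most 10% mitochondrial UMIs, -0.049 with Lgr5 of at least 3, -0.044 with no Olfm4 UMI, -0.0092 with no Olfm4 limit, -0.27 with counterparts under 20 of mature genes, -0.025 among cycling and -0.44 among other cells, -0.037 with CPM averaged over cells and -0.16 with both groups under 40. Ascl2 in set 2 was at -0.20 with at most 10% mitochondrial UMIs, -0.23 with counterparts under 20, -0.069 among cycling cells and -0.18 with both groups under 40. Unless said otherwise, counts are of genes past the fold, as higher or lower in members against counterparts in both sets, or between the sets, and the cause of a change was not tested. At most 10% mitochondrial UMIs left 123 and 55 members, with a Wnt and stem median of 0.047 in set 2, beside -0.0066 over all genes. By sign, 13 of the 22 Wnt and stem genes were higher in both sets, beside 31.3% of all genes. Under that limit 64 genes were lower and 594 higher in set 1 than set 2, and Kif20b was at -0.054 in set 2. Lgr5 of at least 3 per 10000 left 42 and 30 members, with 12 of the 22 Wnt and stem genes higher by sign, beside 37.6% of all genes. Past the fold, 203 genes were then higher, and 1476 were higher in set 2 and 829 in set 1. Lgr5 of at least 1 gave 639 and 406 members, with 177 higher in set 2 and 112 in set 1. At least 4 Lgr5 UMIs gave 626 and 396 members, with 307 lower, and 178 higher in set 2 and 122 in set 1.

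Counterparts under 20 per 10000 of mature genes, with members not limited, gave Wnt and stem medians of 0.18 and 0.067, beside 0.032 and 0.021 over all genes. By sign, 12 of the 22 Wnt and stem genes were higher in both sets, beside 37.3% of all genes. Past the fold, 36 genes were higher and 31 lower. That limit is on mature genes in counterparts alone, while members reached 242 per 10000 in set 1 and 43.4 in set 2. The members' median was 24.5 in set 1, above the limit, and 16.3 in set 2, below it. The limit acts on such genes directly, so their turn is at least in part built in and supports nothing. Log2 ratios then turned positive in both sets for Guca2b (0.87 and 0.49), Fabp1 (1.21 and 0.86), Cyp3a11 (0.78 and 0.64), Leap2 (0.56 and 0.98), Spink1 (0.89 and 0.39), Cyp2c29 (1.82 and 1.02), Tff3 (1.07 and 0.058), Cyp2b10 (1.66 and 0.84) and Rbp2 (0.47 and 0.43), in set 1 for Ghrl (0.67), and in set 2 for Defa24 (0.54) and Apoa1 (0.23). With both groups under 40, an alternative added after seeing the data, 3 genes were higher and 19 lower. Log2 ratios turned positive in both sets for Cyp3a11 (0.080 and 0.24), Leap2 (0.040 and 0.47), Cyp2c29 (0.11 and 0.15) and Tff3 (0.00856 and 0.040), in set 1 for Guca2b (0.26), and in set 2 for Defa24 (0.42), Apoa1 (0.095), Spink1 (0.030) and Cyp2b10 (0.12).

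Among cycling cells, with at least 10 per 10000 over both cell cycle lists together, 52 genes were lower, and Ghrl was at 0.064 in set 1 and Leap2 at 0.10 in set 2. The other cells, also added after seeing the data, held 9 and 20 members. There the Wnt and stem medians were 0.995 and 0.68, beside -0.11 and 0.05 over all genes. In these cells 863 genes were higher and 1222 lower, and 1330 were higher in set 2 and 682 in set 1. Set 2 over set 1 was 1.11 for Adh1, 1.28 for Id1 and 0.089 for Dnajb14, and members over counterparts were -0.40 for Rad21 in set 2, -0.32 and -1.08 for Tpx2 and 0.26 for Tff3 in set 1.

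Averaging CPM over single cells gave 21 genes higher, and a pseudocount of 0.1 gave 15. A pseudocount of 10 gave 0 higher and 92 lower, 71 higher in set 2 and 50 in set 1, and a Wnt and stem median of 0.23 in set 1. A filter of 20 CPM, which tests fewer genes, left 1 higher and 103 lower, and 128 higher in set 2 and 61 in set 1. No filter, which tests more, gave 18 higher and 305 lower, and 516 higher in set 1. No paired analysis was possible because the cells form 1 pooled matrix with no replicates and no test, and no replicate could be left out. Levels of a few CPM, such as those of Ascl2, rest on few UMIs, which limits their precision.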

Other observations

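Few regional and metabolic genes of the members were past the fold against counterparts. Of 12 regional identity genes that passed the filter, 1 was lower past the fold in both sets, beside 2.04% of all genes, Ces1f, a carboxylesterase, at 5.90 CPM against 14.5 in set 1 and 8.89 against 35.7 in set 2. Gata4, a transcription factor of the proximal small intestine, stood at 42.9 against 40.6 and at 36.4 against 35.0, with overlapping intervals. Onecut2, a transcription factor, was higher in members of both sets with intervals apart, at 162 against 146 and at 163 against 131. Of 12 amino acid and energy metabolism genes, 0 were past the fold in both sets. Mpc1, a subunit of the mitochondrial pyruvate carrier, was lower in members with intervals apart, at 154 against 186 and at 162 against 226. Of 5 antigen presentation genes 0 were past the fold in both sets, and B2m, the light chain of class I molecules, stood at 156 against 187 and at 162 against 211. Members were lower with intervals apart in both sets for 3 of these 5, beside 5.62% of all genes.

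Of 7 reserve stem cell genes that passed the filter, 0 were past the fold in both sets. Fgfbp1, a carrier of fibroblast growth factors, was higher in members with intervals apart, at 321 CPM against 268 in set 1 and 369.5 against 293 in set 2. Krt19 was lower with intervals apart, at 448 against 543 and at 589.7 against 756. Hopx stood at 236 against 219 in set 1, with intervals apart, and at 184 against 182.5 in set 2, with overlapping intervals. Cdkn1c, an inhibitor of cell cycle kinases, stood at 2.88 against 8.59 in set 1 and at 9.19 against 5.89 in set 2, where 3 cells held 51.6% of the UMIs in members.

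Of 7 Reg proteins and lectins that passed the filter, 1 was lower past the fold in both sets, beside 2.04% of all genes, Reg3a, an antimicrobial lectin, at 1.15 CPM against 11.6 in set 1 and 0.296 against 3.69 in set 2. Of 5 interferon genes 1 was, the chemokine Cxcl10, at 19.0 (15.9 to 22.5) against 32.9 (31.1 to 34.6) and at 18.1 (13.8 to 23.2) against 37.3 (35.4 to 39.2). Of the tuft and microfold lists 1 gene each passed the filter, and 0 were past the fold in both sets.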
